A study of Mus musculus with 19 samples.

Results

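The cytosolic ribosomal protein genes encode the proteins of the ribosome that translates messages from the nucleus, one set for the large (60S) subunit and another for the small (40S) subunit. They were chosen by symbol, as every Rpl or Rps symbol with a number and an optional a, x, y or l suffix, together with Rplp0, Rplp1, Rplp2 and Rpsa, and without symbols ending in -ps. The rule took 89 of the 46095 gene symbols in the count table, 53 of the large and 36 of the small subunit. By the GENCODE annotation 83 of them are protein-coding, and 6 (Rpl32l, Rpl6l, Rps12l1, Rps3a2, Rps3a3 and Rps4l) are processed pseudogenes whose symbols fit the rule. The rule used no measured value.

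A cell builds ribosomes in the nucleolus from ribosomal RNA made by RNA polymerase I and from these proteins, which are needed in matched amounts and are degraded when left over. Most of their messages begin with a 5′ terminal oligopyrimidine tract (TOP), an uninterrupted run of C and T bases through which the kinase mTOR and the RNA-binding protein Larp1 control their translation and stability. In bone marrow the demand for ribosomes rises with proliferation, and loss of single ribosomal proteins is known for impaired blood formation, as in human Diamond-Blackfan anaemia.

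RNA was sequenced from 19 libraries of bone marrow cells of C57BL/6 mice. Hypergravity mice were spun at 15 G for 15 min per session over a total of about 1 or 3 weeks, and controls were listed at 0 G. Bone marrow-derived macrophages (BMDM), grown with the cytokine M-CSF, gave 3 controls and 2 hypergravity libraries at 1 week and 2 with 2 at 3 weeks. Bone marrow mesenchymal stem cells (BMSC) gave 3 with 3 at 1 week and 2 with 2 at 3 weeks. For the 1 week controls the labels state no duration, and they were matched to the 1 week mice by the pattern of their names. Whether the replicates were separate animals or separate cultures is not stated; p-values therefore cover only how far these samples spread, which could be technical.

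Library totals ran from 16.325 to 33.016 M (1e6) counts, and values per library are given in CPM (counts per 1e6 counts of that library). The summed level of 10 macrophage markers lay between 23310 and 32015 CPM in both cell types, so the BMSC libraries carry these messages at the level of the BMDM libraries. The labels give the same M-CSF macrophage medium for BMSC as for BMDM. The summed level of 10 stromal markers was 82.4 to 383 CPM in BMDM and 1894 to 10625 CPM in BMSC. BMSC is therefore used below as the label of a library, not as a pure cell type.

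A run of C and T bases near the start was found in a larger share of these genes than of other genes, but not in all of them. A RefSeq promoter of the GRCm38.p6 build was at hand for 63 of the 83 protein-coding genes. Within 30 bases of the RefSeq start, the longest run of C and T had a median of 9 bases in these 63 genes and of 6 bases in 23882 other genes. A run of at least 8 bases was found in 35 of the 63 (55.6%) and in 25.8% of the other genes. The letters CTTTCC or CTCTTT, on the gene's strand and in the same window, were found in 30.2% of the ribosomal protein promoters and in 5.66% of all promoters. CCGGAAG, a core letter sequence of ETS-family sites, was found on either strand between 250 bases before and 50 after the start in 41.3% of the ribosomal protein promoters and in 10.4% of all promoters, and AAGATGG, the YY1 core, in 15.9% and 7.37%. A match is a description of the letters, and no match says only that they are not in that window.

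The next windows run from 40 bases before the start to 20 bases from it and are printed 5′ to 3′ on the gene's strand, with the longest C and T run near the start in capitals. Rpl35 (chr2:39005112-39005171, minus strand), Rpl14 (chr9:120571477-120571536, plus strand) and Rplp2 (chr7:141447611-141447670, plus strand) are shown as clear tracts of 18, 14 and 10 bases. Rpl37a (chr1:72711220-72711279, plus strand), one of the genes that fell most in BMDM, and Rpl24 (chr16:55966235-55966294, plus strand) and Rpl27 (chr11:101442205-101442264, plus strand), the only 2 that rose there, have runs of 5, 3 and 5 bases.
Rpl35: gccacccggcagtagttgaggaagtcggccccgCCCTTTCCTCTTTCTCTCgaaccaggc
Rpl14: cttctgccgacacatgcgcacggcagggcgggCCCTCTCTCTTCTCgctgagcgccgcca
Rplp2: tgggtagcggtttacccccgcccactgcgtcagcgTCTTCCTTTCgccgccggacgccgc
Rpl37a: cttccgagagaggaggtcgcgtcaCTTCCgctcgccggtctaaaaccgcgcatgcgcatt
Rpl24: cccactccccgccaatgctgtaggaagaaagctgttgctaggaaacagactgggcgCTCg
Rpl27: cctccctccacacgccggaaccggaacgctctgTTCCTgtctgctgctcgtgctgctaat
The RefSeq start need not be the start used in these cells, and a run that begins a few bases from it would be the tract of a neighbouring start.

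Levels differed widely between genes, although most of their proteins occur in equal numbers in a ribosome. Per kilobase of coding sequence, and averaged over all libraries, Rpl41, the shortest of these proteins with 75 coding bases, was highest at 6998 CPM per kb. Rplp1, a protein of the acidic stalk that recruits translation factors, followed at 1832 CPM per kb, then Rps24 at 1460, Rpl39 at 1291 and Rplp0, the base of that stalk, at 1145 CPM per kb. Counts were divided by coding length alone, so any reads outside the coding part raise the value of genes with a short one. Before that division Rpl41 averaged 525 CPM, below Rplp0 at 1089 CPM. In the middle of the order stood Rps7 (311 CPM per kb), Rpl36 (287) and Rpl3 (250). At the bottom, Rpl10l had no count in any library, Rpl32l stood at 0.0403 CPM per kb and Rps4l at 0.0752. For Rpl10l the limit that a count of 0 allows was 0.0909 to 0.184 CPM per library, which covers counting error only.

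Part of this spread moves with sequence that the genes share with other genes. Ribosomal protein messages have left many processed pseudogenes in the genome, and a read from a copied stretch cannot be placed uniquely. Of the 83 protein-coding genes, 29 share every 50-base word of their coding sequence with at least 1 other annotated gene, and their median level was 34.5 CPM per kb. The 39 genes that share more than 50% had a median of 548 and the 15 that share 50% or less had a median of 561 CPM per kb. Among the 29 fully shared genes 15 stood below 50 CPM per kb, Rps28 at 1.94 among them. Rpl41 is fully shared and highest per kb, but its value rests on a length of 75 coding bases. Across the 83 genes, which are not independent replicates, Spearman's rho between the shared percentage and the level was −0.48, given as a description. How reads with several placements were counted is not given in the sources used here, so levels of the fully shared genes are uncertain.

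**Figure D1:**
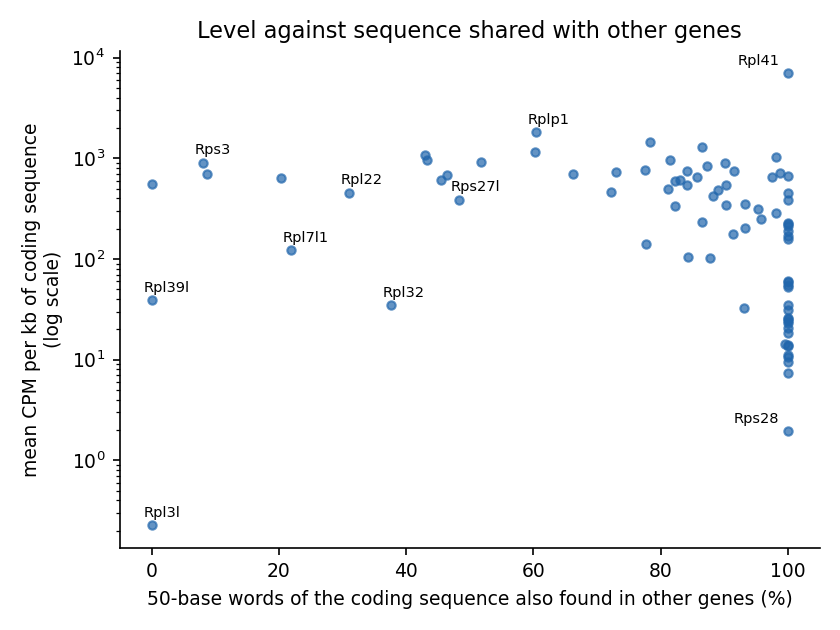
Mean level per kilobase of coding sequence (log scale) against the percentage of 50-base words of that coding sequence found in other genes, for the 82 protein-coding genes with counts. Each point is a gene averaged over 19 libraries, and most of the lowest points lie at 100% shared.

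The ribosomal protein genes together took 1.10% to 2.31% of all counts in a library, and their share moved with the group in the 1 week sets. In BMDM at 1 week the controls held 2.10%, 1.95% and 1.42%, a mean of 1.82% ± 0.36 (SD, n = 3), and the hypergravity libraries held 1.20% and 1.10%, a mean of 1.15% ± 0.077 (SD, n = 2). Both hypergravity libraries lay below all 3 controls, and control replicate 3 lay between them and the other controls. The share of mitochondrially encoded counts fell in the same libraries, from 1.38% ± 0.013 (SD, n = 3) to 0.785% ± 0.00088 (SD, n = 2), also without overlap. With those counts left out of the totals the difference in ribosomal protein share was −0.691 percentage points, beside −0.675 with them. In BMSC at 1 week the order was the opposite, with 1.59%, 1.75% and 1.81% in controls (1.72% ± 0.11, SD, n = 3) and 2.22%, 2.31% and 2.18% under hypergravity (2.24% ± 0.067, SD, n = 3). These groups did not overlap either, and the mitochondrially encoded share was 1.69% ± 0.11 and 1.67% ± 0.22 (SD, n = 3 each).

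In the 3 week sets the shares of the groups overlapped. BMDM controls held 1.72% and 1.68% against 1.61% and 1.77%, and BMSC controls 1.93% and 1.85% against 1.90% and 1.92%. The differences between group means were −0.675 and −0.0152 percentage points in BMDM and 0.522 and 0.0159 in BMSC, at 1 and 3 weeks. On TMM effective library sizes they were −0.434 and 0.0273 points in BMDM and 0.468 and −0.0661 points in BMSC, so the 1 week difference in BMDM was smaller and both 3 week differences changed sign. No p is given for this sum. The 95% Clopper-Pearson interval of a library's share was at most 0.0137 points wide, so counting error is far below the 1 week differences. The ratio of large to small subunit counts stayed between 1.22 and 1.31 in all 19 libraries. In bulk RNA, fewer cells of a type and less RNA per cell cannot be told apart.

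**Figure D2:**
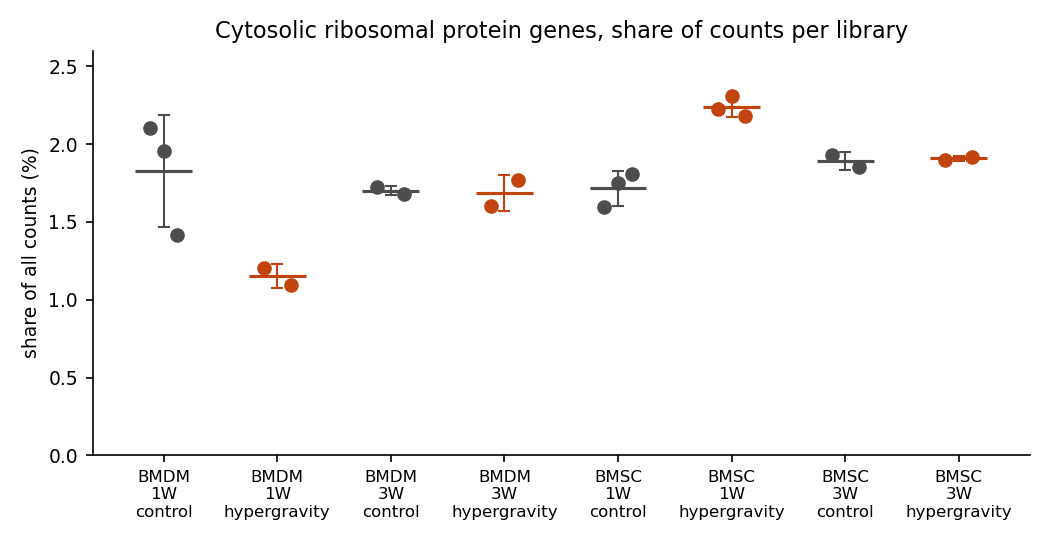
Share of all counts that fell on the 89 ribosomal protein genes, in percent, for each library (points) with group mean and SD. The 1 week BMDM hypergravity libraries (1.20% and 1.10%) lie below their controls, the 1 week BMSC hypergravity libraries (2.18% to 2.31%) lie above theirs, and the 3 week groups lie together.

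In BMDM at 1 week, 37 of the 84 ribosomal protein genes tested fell, 2 rose and 45 did not pass the test (edgeR quasi-likelihood, Benjamini-Hochberg adjusted p below 0.05 over 13842 genes). In this contrast 30.8% of all tested genes were called lower and 30.5% higher, so the share called lower (44.0%) was moderately above the background, while the share called higher (2.38%) was far below it. The median log2 fold change of the 84 genes was −0.42, beside −0.03 over all genes tested, and 78 of the 84 had a negative value. Of the large subunit 23 of 50 fell with a median of −0.45, and of the small subunit 14 of 34 fell with a median of −0.39. In CPM, 68 of the 84 genes had both hypergravity libraries below all 3 controls, where 47.4% of all tested genes did, and 2 had both above, where 25.7% did.

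How many were called depended on single libraries. Control replicate 3 was the lowest of the 3 controls in 83 of 84 genes. Without it, 74 genes were called lower and 1 higher. Without control replicate 1 the calls were 20 lower and 3 higher, without control replicate 2 they were 20 and 1, without hypergravity replicate 1 they were 24 and 0, and without hypergravity replicate 2 they were 9 and 0. The median ran from −0.62 to −0.31 over these omissions. With library size alone in place of TMM scaling the median of all genes moved from −0.03 to −0.29 and that of the ribosomal protein genes to −0.68, with 71 called lower and none higher. Shares of all tested genes called under these settings are not given here. Without those shares, the counts under these settings cannot be set against a general change in the number of calls.

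**Figure D3:**
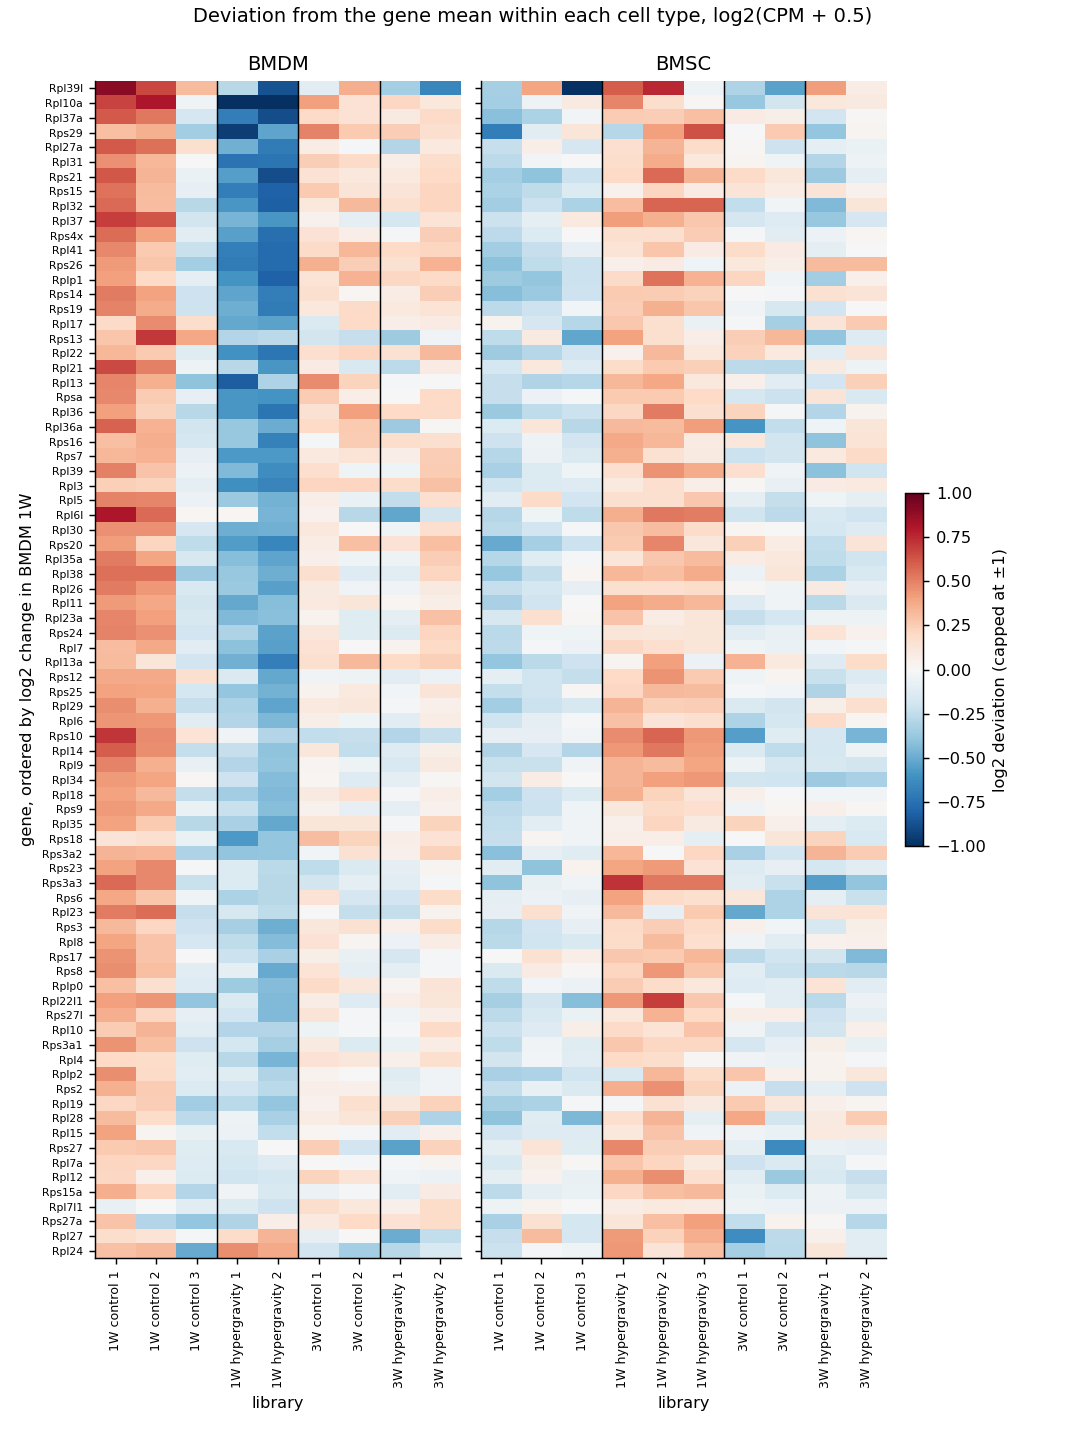
Deviation of each gene from its own mean within a cell type, on the log2(CPM + 0.5) scale, for 80 of the genes (lines) in each library (columns), ordered by the 1 week BMDM fold change. The 1 week BMDM hypergravity columns are low and the 1 week BMSC hypergravity columns are high in most genes, and control replicate 3 of the 1 week BMDM set lies below the other 2 controls.

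Among the genes that fell most in BMDM at 1 week was Rpl10a, a protein of the mobile stalk beside the site where spent tRNA leaves (chr17:28328471-28331033, GRCm38, plus strand). It stood at 11.8, 13.0 and 7.01 CPM in controls and at 3.10 and 2.82 CPM under hypergravity. The groups did not overlap, and the log2 fold change was −1.59 ± 0.27 (SE, edgeR adjusted p = 0.000512). It shares 99.5% of its coding words with other genes. Rpl37a, a large subunit protein, measured 383, 359 and 222 CPM in controls and 154 and 135 CPM under hypergravity. All 3 controls were higher than both hypergravity libraries, with a change of −0.89 ± 0.21 (edgeR adjusted p = 0.00361).

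Rpl27a, also of the large subunit, gave 35.1, 33.6 and 25.5 CPM against 16.2 and 13.8 CPM, a change of −0.81 ± 0.18 (edgeR adjusted p = 0.00264). Rpl31, at the rim of the exit tunnel, gave 26.7, 24.4 and 19.3 CPM against 11.4 and 11.4 CPM, a change of −0.78 ± 0.15 (edgeR adjusted p = 0.00122). In each of these the groups were separate and the third control was the lowest. These 4 calls held when any 1 of the 9 BMDM libraries was left out, with adjusted p of at most 0.0389 in edgeR.

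Rpl24 and Rpl27 moved the other way. Rpl24, a late-joining protein that forms a bridge to the small subunit, measured 93.6, 95.3 and 53.7 CPM in controls and 105 and 99.4 CPM under hypergravity. Both hypergravity libraries lay above all controls, closely so for 2 of them, and the log2 fold change was 0.60 ± 0.21 (edgeR adjusted p = 0.0304). Rpl27, of the large subunit, measured 7.40, 7.19 and 6.40 CPM against 7.46 and 8.36 CPM, with a change of 0.44 ± 0.15 (edgeR adjusted p = 0.0297). Both share 100% of their coding words with other genes. With library size alone the changes were 0.34 (edgeR adjusted p = 0.174) and 0.18 (edgeR adjusted p = 0.331). Each call was also lost on leaving out any of 6 of the 9 libraries, with adjusted p of up to 0.127 for Rpl24 (without hypergravity replicate 1) and 0.185 for Rpl27 (without hypergravity replicate 2). These were the only 2 genes called higher.

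Of the 3 proteins of the acidic stalk 1 passed the test in BMDM at 1 week. Rplp1 fell from 783, 676 and 553 CPM to 390 and 335 CPM (log2 fold change −0.63 ± 0.15, edgeR adjusted p = 0.0046; 0.052 without hypergravity replicate 2). Its partner Rplp2 measured 321, 265 and 215 CPM against 214 and 189 CPM, with a change of −0.15 ± 0.15 (edgeR adjusted p = 0.421), and the base protein Rplp0 measured 1047, 948 and 776 CPM against 662 and 630 CPM, with −0.25 ± 0.12 (edgeR adjusted p = 0.102). All 3 had both hypergravity libraries below the lowest control in CPM. Without control replicate 3, Rplp2 and Rplp0 passed too, at −0.31 and −0.39 (edgeR adjusted p = 0.0104 and 0.000484), as they did with library size alone (edgeR adjusted p = 0.0312 and 0.00338). Whether these changes differ from each other was not tested.

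On the small subunit, Rpsa, known also as the laminin receptor, fell by 0.56 on the log2 scale (SE 0.15, edgeR adjusted p = 0.00965), from 605, 518 and 410 CPM to 290 and 288 CPM. Rps4x, encoded on the X chromosome, fell by 0.70 (SE 0.18, edgeR adjusted p = 0.00778). Rps14 and Rps19, which are known from human anaemias of the red lineage, fell by 0.62 and 0.58 (edgeR adjusted p = 0.018 and 0.0196). Rps3, at the messenger RNA entry channel, and Rps6, the protein phosphorylated downstream of mTOR, did not pass, at −0.27 (edgeR adjusted p = 0.134) and −0.28 (edgeR adjusted p = 0.197). Without control replicate 3 both passed, at −0.45 and −0.42 (edgeR adjusted p = 0.000244 and 0.0176), and both passed with library size alone (edgeR adjusted p = 0.00754 and 0.0206). The calls of Rpsa and Rps4x were lost without hypergravity replicate 2 (edgeR adjusted p = 0.058 and 0.0703), as were those of Rps14 and Rps19 (0.116 and 0.135 by edgeR); Rps19 was also lost without control replicate 1 (0.0527) and Rps14 and Rps19 without control replicate 2 (0.0538 and 0.0574).

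On the large subunit, Rpl3, which reaches into the peptidyl transferase centre, fell by 0.51 (SE 0.12, edgeR adjusted p = 0.00347) and kept its call in every omission of 1 library. Rpl41 fell by 0.67 (edgeR adjusted p = 0.00767; 0.0572 without hypergravity replicate 2). Rpl5 and Rpl11, which bind the Mdm2 protein when ribosome assembly is disturbed, fell by 0.50 and 0.45 (edgeR adjusted p = 0.0382 and 0.0372), and Rpl26 fell by 0.49 (edgeR adjusted p = 0.0383). Those 3 calls were lost in 6, 8 and 8 of 9 omissions, with adjusted p of up to 0.176, 0.145 and 0.199. Rpl13a, known from human monocytic cells for a second role in silencing inflammatory messages, fell by 0.41 (edgeR adjusted p = 0.0331; 0.0907, 0.072 and 0.208 without control replicate 1, control replicate 2 and hypergravity replicate 2). Rpl10, which joins the large subunit late, and Rpl38, known in mouse embryos for its role in translating Hox messages, measured −0.21 and −0.49 and did not pass (edgeR adjusted p = 0.197 and 0.118). Without control replicate 3 they passed, at −0.36 and −0.77 (edgeR adjusted p = 0.000858 and 4.49e-05), and with library size alone too (edgeR adjusted p = 0.00897 and 0.0238).

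In BMSC at 1 week 11 of the 83 genes tested rose and none fell (edgeR, adjusted over 15289 genes), where 0.249% of all tested genes were called higher and 2.47% lower. The median log2 fold change was 0.37, beside 0.00 over all genes, and all 83 values were positive, from 0.05 to 0.79. Of the 83, 63 had an unadjusted p below 0.05, where 18.5% of all tested genes did. In CPM, 72 of the 83 had all 3 hypergravity libraries above all 3 controls, where 11.2% of all tested genes did, and 0 had all below, where 9.33% did. The 11 called genes were 6 of the large subunit, with Rpl32, Rpl22l1, Rpl14, Rpl6l and Rpl29 among them, and 5 of the small subunit, with Rps3a3, Rps21, Rps14 and Rps2 among them. Subunits were assigned by symbol. Of the 80 protein-coding genes tested 9 were called, and of the 3 processed pseudogenes tested 2 were, Rpl6l and Rps3a3.

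Rpl14, a large subunit protein (chr9:120571444-120574654, GRCm38, plus strand), measured 78.9, 86.3 and 79.2 CPM in controls and 131, 140 and 130 CPM under hypergravity. Every hypergravity library was above every control, and the log2 fold change was 0.68 ± 0.08 (edgeR adjusted p = 0.00949). Rpl22l1, the paralogue of Rpl22, measured 32.3, 35.9 and 30.3 CPM against 55.5, 66.3 and 49.4 CPM, with 0.76 ± 0.11 (edgeR adjusted p = 0.0125). Its groups were separate too. Rpl32 had the largest change, from 11.3, 12.4 and 11.5 CPM to 18.1, 21.9 and 21.9 CPM, at 0.79 ± 0.18 (edgeR adjusted p = 0.0456).

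Rps21, of the small subunit, measured 118, 113 and 129 CPM against 172, 222 and 190 CPM, with 0.66 ± 0.14 (edgeR adjusted p = 0.0357). The processed pseudogene Rps3a3 measured 18.7, 23.5 and 24.2 CPM against 41.3, 35.9 and 35.8 CPM, with 0.73 ± 0.13 (edgeR adjusted p = 0.0204). Its groups did not overlap, but 65.1% of its words are shared with other genes, so reads of its parent gene may be counted there. Rps14 rose by 0.54, Rpl29 by 0.48 and Rps2, a protein of the messenger RNA entry site, by 0.46 on the log2 scale. Rplp1 (0.65, edgeR adjusted p = 0.0666) and Rpl11 (0.50, edgeR adjusted p = 0.057) lay just outside the threshold, and both passed without control replicate 3 (edgeR adjusted p = 0.0326 and 0.00752) and with library size alone (edgeR adjusted p = 0.0376 and 0.0269).

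The direction in BMSC did not rest on a single library, but the calls did. The median stayed between 0.31 and 0.46 when any of the 10 libraries was left out, while the number called was 0 without control replicate 1 or hypergravity replicate 2, 2 without hypergravity replicate 3 or either 3 week control, 6 without control replicate 2 or hypergravity replicate 1, 7 without either 3 week hypergravity library and 44 without control replicate 3. DESeq2 called 33 higher. With only the 1 week groups in the fit, or with all 19 libraries, edgeR called none, with 54 and 59 genes at an unadjusted p below 0.05. Shares of all tested genes called under these settings are not given here either. Rpl14 and Rpl22l1 lost their calls in 2 of 10 omissions, with adjusted p of up to 0.0638 and 0.0788 (without hypergravity replicate 2 and control replicate 1). Rpl32, Rps21 and Rps3a3 lost theirs in 6 of 10, with adjusted p of up to 0.198, 0.191 and 0.103 without hypergravity replicate 2, and Rps14 in 9 of 10, up to 0.165 without control replicate 1.

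Whether the 1 week change differed between the 2 cell types was tested in a fit of all 19 libraries, which does not test that the changes ran in opposite directions. The 1 week change in BMDM minus that in BMSC was called lower for 67 of 84 genes and higher for none (edgeR, over 15550 genes), where 24.8% of all tested genes were called in each direction. The median difference was −0.83, beside −0.07 over all genes. Leaving out any of the 19 libraries gave 50 to 77 genes called lower, the fewest without the second 1 week BMDM hypergravity library. Rpl32 differed by −1.52 ± 0.31 (edgeR adjusted p = 0.000622) and Rps21 by −1.45 ± 0.25 (edgeR adjusted p = 0.00013). The 17 genes that did not pass included Rpl24 (0.24, edgeR adjusted p = 0.436), Rpl27 (0.10, edgeR adjusted p = 0.757) and Rpl7l1 (0.10, edgeR adjusted p = 0.497).

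By sign, 77 of the 83 genes tested in both cell types were lower under hypergravity in BMDM and higher in BMSC, where 27.8% of all 13437 genes tested in both were. By call, 4 genes fell in BMDM and rose in BMSC (Rpl32, Rps21 and Rps14 among them), 35 were called in BMDM alone, 7 in BMSC alone and 37 in neither. Over all genes tested in both, 0.112% fell in BMDM and rose in BMSC, 59.7% were called in BMDM alone, 1.50% in BMSC alone and 37.3% in neither. The share called in BMDM alone was below this background, which pools both directions. The shares that fell in BMDM and rose in BMSC, or were called in BMSC alone, were above it. Those BMSC calls depended on single libraries, as given above. Rpl22l1 and Rpl14 are examples of the BMSC group, with BMDM values of −0.24 (edgeR adjusted p = 0.39) and −0.38 (edgeR adjusted p = 0.167). Rpl22l1 passed in BMDM without control replicate 3 (−0.50, edgeR adjusted p = 0.00105).

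**Figure D4:**
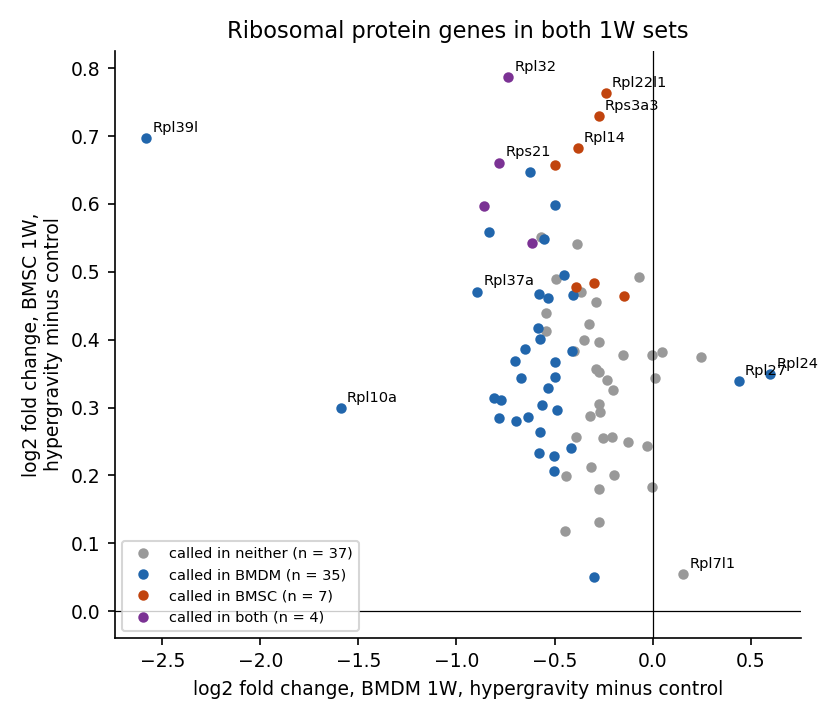
Log2 fold change at 1 week in BMSC (vertical axis) against that in BMDM (horizontal axis), hypergravity minus control after TMM scaling, for the 83 genes tested in both, coloured by where they were called. All points lie above 0 in BMSC and 77 of them lie below 0 in BMDM; with library size alone no gene was called higher in BMDM.

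In the 3 week sets no ribosomal protein gene was called in either cell type by edgeR, and none by DESeq2. Of all tested genes 0.426% were called higher and 0% lower in BMDM at 3 weeks, and 0% in either direction in BMSC. At an unadjusted p below 0.05 there were 0 of 84 genes in BMDM and 9 of 83 in BMSC, where 4.28% and 5.23% of all tested genes did, and the medians were 0.02 and −0.06. In BMDM, 15 genes had both hypergravity libraries below both controls and 4 had both above, where 24.9% and 12.8% of all tested genes did. In BMSC 20 lay below and 29 above, where 14.4% and 31.2% did.

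The genes with the smallest p at 3 weeks were named by rule. In BMDM, Rpl27 measured 6.09 and 6.50 CPM in controls and 4.45 and 5.40 CPM under hypergravity, a change of −0.32 ± 0.18 (edgeR adjusted p = 1), and Rpl36a, Rpl12, Rpl10 and Rps23 had changes of −0.40, −0.20, 0.17 and 0.22 with the same adjusted p. In BMSC, the pseudogene Rps3a2 measured 50.1 and 55.0 CPM against 79.6 and 75.0 CPM, a change of 0.49 ± 0.15 (edgeR adjusted p = 0.899), and Rpl23 measured 70.1 and 81.0 CPM against 110 and 110 CPM, a change of 0.48 ± 0.15 (edgeR adjusted p = 0.899). Rpl35a, Rps21 and Rpl39 had changes of −0.38, −0.43 and −0.43 with the same adjusted p. Rps21, which was high under hypergravity at 1 week, measured 117 and 140 CPM against 171 and 162 CPM in the 3 week controls.

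The change at 3 weeks minus that at 1 week was called in 16 of 84 genes in BMDM, 15 higher and 1 lower, where 21.9% and 21.5% of all tested genes were called. The median difference was 0.42, beside 0.02 over all genes. Rpl10a differed by 1.50 ± 0.38 (edgeR adjusted p = 0.00943), and Rpl27 was the 1 gene with a lower value, at −0.76 ± 0.23 (edgeR adjusted p = 0.0247). This count was 63 without 1 week control replicate 3, 1 or 2 without the second 1 week hypergravity library, either 3 week control or the second 3 week hypergravity library, and 6 to 11 in the other omissions. In BMSC the median difference was −0.46, beside 0.04 over all genes, and 40 of 83 genes had an unadjusted p below 0.05, where 9.31% of all tested genes did, but edgeR called none (0% of all genes in either direction) and DESeq2 called 10 lower.

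Among controls, BMDM and BMSC differed little in these genes. The mean of the control groups was called higher in BMDM for 9 of 84 genes and lower for 3, where 22.2% and 27.7% of all tested genes were called, and the median difference was 0.14. The 9, with Rpl37a, Rpl32, Rplp1, Rpl22, Rpl36, Rps21, Rpl26 and Rpl10 among them, had log2 differences of 0.30 to 0.42, and the 3 were Rpl39l, Rpsa (−0.39) and Rps2 (−0.31). The split between directions did not hold: with library size alone 1 was higher and 10 were lower, and leaving out 1 library gave from 5 to 41 calls, with more lower than higher without BMDM 1 week control replicate 1 (2 and 5), BMDM 3 week control replicate 2 (2 and 3) or BMSC 3 week control replicate 2 (2 and 3, higher and lower). Between the 3 week and 1 week controls, 1 BMDM gene was called lower (Rps10, −0.77 ± 0.18, edgeR adjusted p = 0.048), where 1.55% of all tested genes were higher and 2.41% lower, and 2 BMSC genes were called higher (with Rps26, at 0.42, among them), where 3.32% were higher and 3.73% lower. Without 1 week control replicate 3 the BMDM count was 51, and without any other BMDM library it was 0. The BMSC count was 19 without 1 week control replicate 3, 0 without 1 week control replicate 1 or either 3 week control, and 1 or 2 in the other omissions.

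Rpl39l showed the widest difference between the cell types. It is the paralogue of Rpl39, a small protein lining the exit tunnel, is known in mouse for its level in testis, and shares 0% of its coding words with other genes (chr16:10170226-10174911, GRCm38, plus strand). In controls it measured 1.31, 1.04, 0.706, 0.393 and 0.744 CPM in BMDM and 7.95, 13.5, 4.77, 8.09 and 6.87 CPM in BMSC. All BMSC controls were above all BMDM controls, and the log2 difference was −3.24 ± 0.32 (edgeR adjusted p = 4.42e-07). In the 1 week BMDM set it fell to 0.300 and 0.0303 CPM, the latter a single count, with a fold change of −2.58 ± 0.75 (edgeR adjusted p = 0.0127); without hypergravity replicate 2 it was −1.50 (edgeR adjusted p = 0.126). In BMSC at 1 week it measured 15.7, 17.4 and 9.77 CPM under hypergravity, overlapping the controls, and did not pass (0.70, edgeR adjusted p = 0.239; 1.10 and 0.0478 without control replicate 2). Stromal marker levels differ between the same libraries, as given above; their part in the difference was not tested.

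Other paralogue pairs are described as ratios of counts, which do not depend on scaling. The ratio of Rpl22l1 to Rpl22, an RNA-binding large subunit protein, was 0.200 ± 0.033 (SD, n = 3) in 1 week BMDM controls and 0.257 ± 0.023 (SD, n = 2) under hypergravity. In BMSC it was 0.232 ± 0.028 and 0.295 ± 0.026 (SD, n = 3 each). In both sets the hypergravity libraries lay above the controls, and at 3 weeks the group means differed by less than 0.01. The ratio of Rpl7l1, a nucleolar relative of Rpl7, to Rpl7 was 0.129 ± 0.020 in 1 week BMDM controls and 0.189 ± 0.0055 under hypergravity, as Rpl7 fell (−0.42, edgeR adjusted p = 0.0298; up to 0.167 on leaving out a library, lost without any 1 week library other than control replicate 3) while Rpl7l1 measured 0.16 (edgeR adjusted p = 0.155). In BMSC the same ratio was 0.155 ± 0.010 and 0.136 ± 0.0042.

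Rps27l, a paralogue known as a p53 target, outnumbered Rps27 by a ratio of 25.2 to 61.3 in single libraries, but Rps27 has its reads shared with copies elsewhere and a low level (1.54 to 4.34 CPM). Neither gene of that pair passed in any hypergravity contrast, but Rps27l passed without control replicate 3 in BMDM (−0.38, edgeR adjusted p = 0.00416) and in BMSC (0.45, edgeR adjusted p = 0.0339) at 1 week, and in BMDM with library size alone (edgeR adjusted p = 0.0106). Rpl3l, the striated muscle relative of Rpl3, stood at 0.0925 to 0.623 CPM and was not tested, like Rpl10l, Rpl32l, Rps4l and Rps12l1. Rps28 passed the filter on low counts in BMDM only.

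Genes with long and short C and T runs had similar medians. In BMDM at 1 week the 35 genes with a run of at least 8 bases had a median of −0.39 with 14 called lower, and the 26 with a shorter run −0.46 with 10 lower and 2 higher. In BMSC the medians were 0.35 in each class, with 2 called higher in each. Medians also lay close together by sequence sharing: by increasing sharing the BMDM medians were −0.32, −0.42 and −0.45 and the BMSC medians 0.39, 0.37 and 0.35. Pseudogene symbols ending in -ps, which hold 11.6% to 12.6% as many counts as the ribosomal protein genes, had medians of −0.39 in BMDM and 0.37 in BMSC. In BMDM 18 of 76 (23.7%) fell and none rose, where 30.8% of all tested genes fell and 30.5% rose. The share that fell was thus below this background. In BMSC 2 of 80 (2.50%) rose and none fell, where 0.249% of all tested genes rose and 2.47% fell. Without control replicate 3 of each set, 40 of 75 fell in BMDM and 13 of 78 rose in BMSC, and with library size alone 39 fell in BMDM and 6 rose in BMSC.

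Ribosomal proteins that the symbol rule leaves out gave no call between hypergravity and control after TMM scaling. A list of 4 of them, with Fau, Rack1 and Rpl36al among them, had medians of −0.13 in BMDM and 0.35 in BMSC at 1 week, and 0 of 4 were called by edgeR in either, with 0 and 3 at an unadjusted p below 0.05. With library size alone 2 of the 4 fell in BMDM. In the difference between the cell types' 1 week changes 1 of the 4 was called lower, and in BMDM minus BMSC controls 1 was called higher. Mitochondrial ribosomal proteins, which belong to a separate ribosome, were mixed in BMDM, with a median of −0.12. There 10 of 75 rose (13.3%) and 27 fell (36.0%), or 8 and 41 with library size alone. Of all tested genes 30.5% rose and 30.8% fell in this contrast after TMM scaling. Mrpl45 rose by 1.34 and Mrpl52 by 1.52 on the log2 scale, and Mrpl36 and Mrps6 fell by 1.40 and 1.54. In BMSC 0 of 75 were called by edgeR (16 at an unadjusted p below 0.05) and the median was 0.20. Among further genes with TOP messages, 8 of 20 fell and 2 rose in BMDM with a median of −0.16 (11 and 0 with library size alone, 6 and 3 with DESeq2 size factors), with Eef1b2, a subunit of the elongation factor exchange complex, at −0.76 and the histone chaperone Nap1l1 at −0.67. In BMSC their median was 0.19, 0 of 20 were called by edgeR and 5 had an unadjusted p below 0.05. Without BMSC 1 week control replicate 3, 5 of these 20, 4 of 75 mitochondrial ribosomal proteins and 2 of the 4 left out by the rule rose in BMSC, and without the third BMDM control 2 of those 4 fell in BMDM.

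The factors that start translation and build ribosomes did not follow the ribosomal proteins in BMDM at 1 week. Of 35 initiation factors 21 rose and 6 fell, with a median of 0.50 (15 and 8 with library size alone, median 0.24). Eif4e, the cap-binding factor, rose from 72.9 ± 1.0 (SD, n = 3) to 231 ± 15 CPM (SD, n = 2), a log2 change of 1.92 ± 0.10 (edgeR adjusted p = 9.92e-08), while Eif3f fell by 0.79. Of 55 ribosome biogenesis factors 37 rose (67.3%) and 3 fell (5.45%), with a median of 0.49 (22 and 5 with library size alone, median 0.22). The nucleolar GTPase Gnl3 rose from 34.4 ± 0.78 to 89.5 ± 5.2 CPM (1.64 ± 0.09, edgeR adjusted p = 2.78e-07), and Nop14, a factor of small subunit assembly, by 1.42. Of 13 genes of RNA polymerase I and its factors 5 rose (38.5%) and 1 fell (7.69%), but with library size alone 1 rose and 3 fell. The 1 that fell after TMM scaling was Ubtf, which opens ribosomal DNA for transcription (−1.08). Of 10 elongation and termination factors 4 rose and 4 fell, 40% in each direction (3 and 5 with library size alone). The termination factor Etf1 rose by 1.53 and Eef1a1 fell by 0.39. Small nucleolar RNA host genes, many of which carry TOP tracts, had 6 of 13 lower (46.2%) and 2 higher (15.4%). Their median was −0.35 (7 and 1 with library size alone).

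Of 35 genes that control translation 19 were higher (54.3%) and 8 lower (22.9%) in BMDM at 1 week (15 and 11 with library size alone). Over all tested genes these shares were 30.5% and 30.8%. Ppp1r15a, the stress-induced subunit that directs removal of phosphate from the initiation factor eIF2, rose from 30.2 ± 1.4 to 327 ± 21 CPM (3.70 ± 0.10, edgeR adjusted p = 2.31e-09), Ddit4, an inhibitor of mTOR signalling, rose from 2.16 ± 0.17 to 22.7 ± 1.1 CPM (3.65 ± 0.16, edgeR adjusted p = 3.92e-08), and Pdcd4, an inhibitor of the initiation helicase, fell from 46.7 ± 5.1 to 2.31 ± 0.35 CPM (−4.10 ± 0.16, edgeR adjusted p = 2.48e-08). Among 20 proliferation genes 18 fell and none rose, with a median of −2.45. Of 12 nucleolar stress and p53 genes 8 fell and 3 rose, with Cdkn1a and Mdm2 at 2.66 and 2.23 and Sesn1 at −4.01. In the same libraries the summed macrophage markers were 28735 to 32015 CPM in controls and 23813 to 24273 CPM under hypergravity, with all 10 markers detected in both. In this contrast 47.4% of all tested genes had both hypergravity libraries below all 3 controls in CPM, and 25.7% had both above. Sums of the other 8 marker lists, like the macrophage sum, did not overlap between these groups. They were lower under hypergravity for neutrophil (314 to 616 and 195 to 230 CPM, with Retnlg at 0 in the latter), stromal (136 to 383 and 82.4 to 82.8 CPM, with Lepr at 0 in controls) and mast cell and basophil markers (7.85 to 12.1 and 2.15 to 3.45 CPM, with Mcpt4 at 0 in both). The same held at lower levels for B cell (5.38 to 6.96 and 2.33 to 2.45 CPM, with Ighm at 0 in both), T and NK cell (1.36 to 2.24 and at most 0.333 CPM, with Trac and Gzma at 0 in both, and Cd3d and Cd3g at 0 under hypergravity) and erythroid markers (0.490 to 0.857 and 0.182 to 0.400 CPM, with Hba-a2, Alas2 and Slc4a1 at 0 in both). They were higher under hypergravity for endothelial (13.7 to 22.0 and 44.6 to 50.5 CPM, with Tek at 0 in the latter) and megakaryocyte markers (18.3 to 29.4 and 35.5 to 35.9 CPM, all 6 detected). Other protein-coding genes with at most 1000 coding bases had a median of −0.14, against 0.05 for longer ones. The part of proliferation, cell makeup and gene length in the ribosomal protein values was not tested.

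In BMSC at 1 week few genes of these groups were called. The edgeR test called 0 of 35 initiation factors (10 at an unadjusted p below 0.05), 0 of 13 host genes (5) and 0 of 20 proliferation genes (2), with medians of 0.15, 0.36 and −0.02. Of 55 biogenesis factors 1 fell, Heatr1 (−0.45, edgeR adjusted p = 0.0224), which is needed for transcription of ribosomal DNA. Their median was 0.10, with 9 at an unadjusted p below 0.05. Of 35 translation control genes 2 rose, Ddit3 (0.57) and Ddit4 (0.51), but 24 of the 35 had a negative value and the median was −0.16. At an unadjusted p below 0.05 by edgeR there were 19 of these 35, where 18.5% of all tested genes passed. With library size alone none of the biogenesis and translation control genes were called, and 1 of the latter with DESeq2 size factors. Without control replicate 3, 5 initiation factors rose and 1 fell, 2 translation control genes rose and 5 fell, 1 biogenesis factor rose and 1 fell, and 2 proliferation genes fell. Eif4e measured 98.8 ± 11 and 99.5 ± 5.3 CPM (SD, n = 3 each). Other short protein-coding genes had a median of 0.13 and longer ones −0.06, and the part of gene length in the rise of the ribosomal proteins was not tested. The sums of all 9 marker lists overlapped between groups, the stromal markers at 3588 to 10086 CPM in controls and 5173 to 10625 CPM under hypergravity. In the 3 week sets edgeR called no gene of these lists in either cell type. At an unadjusted p below 0.05 there were from 0 to 8 genes per list in BMDM and from 0 to 14 in BMSC. The 8 were among 20 proliferation genes, where 4.28% of all tested genes passed. Of those 20 genes 19 had a negative value, and their median was −0.33. The 14 were among 80 -ps symbols, where 5.23% of all tested genes passed.

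**Figure D5:**
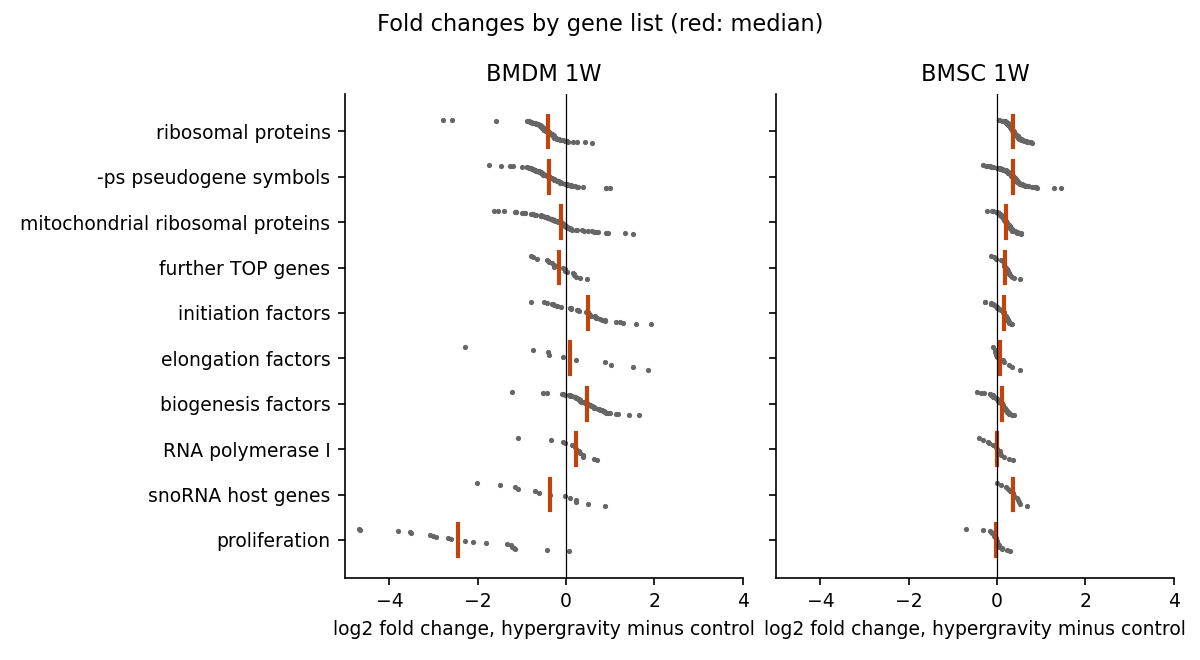
Log2 fold change at 1 week, hypergravity minus control after TMM scaling, of each tested gene (points) by gene list in BMDM and BMSC, with the median in red. In BMDM the ribosomal proteins lie mostly below 0 and the initiation and biogenesis factors mostly above 0; the RNA polymerase I and elongation factor medians change sign with library size alone. In BMSC the ribosomal proteins and -ps symbols have medians of 0.37.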

How the data were processed

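The authors deposited raw counts per gene symbol. Per the submitters' processing notes, HISAT2 2.0.4 and the mm10 build were used. How reads were counted, with which annotation, strand setting and treatment of multiply placed reads, is not given in the sources used here. The test was that of edgeR 4.0.16 under R 4.3.3 (quasi-likelihood, TMM scaling, filterByExpr), with 1 coefficient per group, separately for BMDM (9 libraries, 13842 genes) and BMSC (10 libraries, 15289 genes), and over all 19 libraries (15550 genes) for differences between cell types. A call required an adjusted p (Benjamini-Hochberg, over all genes tested) below 0.05, and log2 fold changes follow TMM scaling while CPM follow library totals. DESeq2 1.42.0 and the settings in the closing section were alternatives. Scripts were tested on simulated counts.

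Libraries of the same group spread over their counts 4.30 to 97.9 times more than counting error alone gives, so none was taken as a library deposited more than once; this does not show that they came from separate cultures. Gene positions and coding sequences came from the GENCODE mouse annotation of GRCm38, and promoters from RefSeq GRCm38.p6. The members and gene lists were chosen with earlier results of these data known. Named genes were, among called members averaging at least 5 CPM, up to 5 that rose most and 5 that fell most (or, with under 5 calls, the 5 of smallest p), a fixed set of members and paralogues, up to 4 genes per list by smallest p in BMDM at 1 week, and members at the top, middle and bottom of the level per kb; others were named after their values were seen. Values of some single genes are not reported here.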

Additional observations from a re-analysis of the deposited data

Results flagged for a closer look

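Members whose change under hypergravity differed between sets or cell types by a direct test are given here. In BMDM the 3 week change minus the 1 week change was called for 16 of 84 members by edgeR. Of all tested genes 21.9% were called higher and 21.5% lower, so members were called less often than this background. The count was 1 to 63 with 1 library left out. The difference was 1.50 for Rpl10a, 0.72 for Rpl27a, 0.72 for Rpl31, 0.90 for Rpl37a, 0.84 for Rps21 and −0.76 for Rpl27, on the log2 scale.

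Between cell types, the 1 week change in BMDM minus that in BMSC was called for 67 of 84 members. Of all tested genes 24.8% were called in each direction. The difference was −1.89 for Rpl10a, −1.52 for Rpl32, −1.45 for Rps21, −1.37 for Rpl37a, −1.12 for Rpl27a, −1.07 for Rpl14 and −1.07 for Rpl31. It was −1.01 for Rpl22l1, −1.01 for the pseudogene Rps3a3, −0.997 for Rpl39, −0.98 for Rpl36a, −0.85 for Rpl35a, −0.75 for Rps23 and −0.65 for the pseudogene Rps3a2.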

How the results depend on the processing

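Members called are given as totals over both directions. In BMDM at 1 week (39) they were 71 with library size alone, 65 without the count filter, 19 with only the groups compared and 9 to 75 on leaving out 1 library; in BMSC at 1 week (11) they were 25, 35, 0 and 0 to 44, with 0 in a fit of all 19 libraries and 33 with DESeq2. In BMDM at 3 weeks (0) there was 1 without the filter. For the 3 week minus 1 week change they were 39 with library size alone, 42 without the filter and 1 to 63 with a library left out in BMDM (16), and in BMSC (0) 13 without the filter and 10 with DESeq2. The difference between cell types at 1 week (67) kept 50 to 77. BMDM minus BMSC controls (12) gave 19 without the filter and 5 to 41 with a library left out, and most calls turned to lower in BMDM with library size alone (11) and without BMDM 1 week control 1 (7), BMDM 3 week control 2 (5) or BMSC 3 week control 2 (5). Controls at 3 weeks minus 1 week gave in BMDM (1) 0, 14 and 0 with library size alone, no filter and only the groups compared, and 0 to 51 with a library left out, and in BMSC (2) 6, 12 and 0, with 4 at a minimum of 1 CPM in 2 libraries, 13 with DESeq2 and 0 to 19. The BMSC 3 week share difference was −0.0661 points on the TMM effective library size. The cause of these shifts was not tested, and shares of all tested genes called under each setting are not given beside the totals.

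Same-numbered libraries deviated together (correlation over 0.1) in 1 of 12 BMDM and 5 of 13 BMSC pairs, and differently numbered ones in 4 of 18 and 8 of 24. In groups of 2 libraries the deviations mirror each other, so these counts are not independent and cannot decide on pairing. The labels give no pairing, and replicate numbers were not taken as pairs. With the replicate number as a block, calls were 75 and 25 at 1 week in BMDM and BMSC, 64 for the BMDM 3 week minus 1 week change, and 51 and 17 between controls of the sets in BMDM and BMSC. In BMDM the block leaves 1 week control 3 out by construction. Rpl27 lost its BMDM call under the block (0.36, edgeR adjusted p = 0.0751). Of the values under other settings for members that the naming rule takes, 340 kept their side of the threshold, 32 gained a call and 3 lost one, none changing sign with a call; with a library left out, added after seeing the data, the numbers were 604, 22 and 85. Gene lists under other scalings and without 1 week control 3 were also added after seeing the data.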

Other observations

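Rps28, chosen here after its values were seen, had counts mainly in 2 BMDM libraries. It stood at 2.72 CPM in 1 week control 2 and at 2.85 CPM in 3 week hypergravity 2, and at 0.0496 to 0.192 CPM in the other BMDM libraries. Its 3 week minus 1 week change was 6.99 ± 2.57 (edgeR adjusted p = 0.0498), which is counted among the 16 members above. All of its coding words are shared with other genes.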
